A study of Homo sapiens with 4 samples.

Results

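The genes described here build the nuclear pore and carry cargo through it: the nucleoporins, the karyopherins (importins, transportins and exportins) and the regulators of the Ran GTPase. They were chosen by symbol. A gene was a member if its symbol was NUP, KPNA, KPNB, IPO, XPO or TNPO followed by a digit, or if it was RAN, RANBP1, RANBP2, RANGAP1, RCC1, AAAS, TPR, SEH1L or NDC1, and if at least 1 probe set of the array named it alone. That gave 55 of the 18244 genes measured. Of these, 52 were bright enough to be tested, and KPNA5, NUP210L and the pseudogene NUP210P1 were not. KPNA2, an importin alpha adaptor, had only a probe set shared with another gene and is not analysed here.

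Expression was profiled in Kelly cells, a human neuroblastoma line with amplified MYCN and activated ALK, in a form resistant to the ALK inhibitor TAE684 and grown with 1 µM of the drug in all groups. The shBORIS group (2 arrays) carried a short hairpin RNA directed at BORIS, the product of CTCFL, a germ-line relative of CTCF. The shLUC group (2 arrays) carried a hairpin against luciferase as the control. Both groups had 24 h with the virus and 48 h of puromycin selection before RNA was taken. The 2 arrays of a group are called biological duplicates in the labels, and cells not grown in TAE684 are not among the samples. A single hairpin against BORIS is named, so effects of this hairpin on other genes and effects of less BORIS cannot be told apart. The p-values rest on the spread between duplicates, pooled in part or in full over genes of like level. The comparison asks how transcripts of the transport machinery differ when CTCFL is reduced in drug-resistant cells.

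The nuclear pore is a ring-shaped assembly in the nuclear envelope. Its scaffold is made of a Y-shaped complex and an inner ring, its channel is lined by flexible nucleoporins rich in phenylalanine and glycine, and filaments face the cytoplasm while a basket faces the nucleus. Karyopherins bind cargo on one side and release it on the other, steered by RanGTP, which is high in the nucleus because the exchange factor RCC1 sits on chromatin and the activating protein RANGAP1 sits outside. Import receptors release cargo when they bind RanGTP, and exportins bind cargo together with RanGTP. Several nucleoporins and RanGTP also act on kinetochores and the spindle when the envelope breaks down in mitosis.

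Each gene was read from its brightest probe set as an intensity on a linear scale, and differences are shBORIS minus shLUC on the log2(intensity + 16) scale, which understates the change of dim genes. They are given in 2 ways: as deposited, and on a centred scale (relative to the median gene), where each array was first set to 0 at the median of the 10946 genes tested. Both are needed because the median gene was itself 0.48 higher in shBORIS cells as deposited. A gene is said to have risen or fallen where limma's p-value, adjusted by the Benjamini-Hochberg method over all genes tested, was under 0.05. Each member comes from bulk RNA, so fewer cells of a type and less RNA per cell cannot be told apart.

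The 5 members with the highest differences on the centred scale were NUP50, TPR, TNPO1, IPO11 and XPO6. Their promoters are shown so that the DNA around the start of these genes can be read beside the values below. Each stretch runs from 250 bases before to 50 bases after the most upstream RefSeq transcript start, 5′ to 3′ on the gene's strand, in build GRCh38.p14. NUP50 lies at chr22:45163675-45163974 (plus strand), TPR at chr1:186375204-186375503 (minus strand), TNPO1 at chr5:72816411-72816710 (plus strand), IPO11 at chr5:62412513-62412812 (plus strand) and XPO6 at chr16:28211916-28212215 (minus strand). Capitals mark matches, on either strand, to CACGTG (the E-box read by MYC and MYCN), CGCATGCG (the core read by NRF1), TTTNNCGC (an E2F motif) and CAGNNGGC (a short core of the CTCF motif). These motifs do not share letters in the stretches shown, and a match is a description of the sequence, not of binding.
NUP50: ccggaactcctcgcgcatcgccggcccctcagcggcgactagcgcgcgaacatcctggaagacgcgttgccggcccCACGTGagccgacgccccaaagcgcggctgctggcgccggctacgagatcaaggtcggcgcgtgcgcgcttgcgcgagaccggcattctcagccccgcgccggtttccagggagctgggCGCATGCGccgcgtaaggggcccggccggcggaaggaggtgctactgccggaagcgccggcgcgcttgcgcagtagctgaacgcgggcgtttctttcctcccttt
TPR: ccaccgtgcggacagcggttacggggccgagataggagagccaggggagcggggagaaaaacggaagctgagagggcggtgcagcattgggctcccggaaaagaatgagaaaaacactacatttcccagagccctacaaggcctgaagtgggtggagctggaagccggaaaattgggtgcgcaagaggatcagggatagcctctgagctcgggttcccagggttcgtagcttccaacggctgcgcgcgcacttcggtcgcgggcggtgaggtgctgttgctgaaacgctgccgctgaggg
TNPO1: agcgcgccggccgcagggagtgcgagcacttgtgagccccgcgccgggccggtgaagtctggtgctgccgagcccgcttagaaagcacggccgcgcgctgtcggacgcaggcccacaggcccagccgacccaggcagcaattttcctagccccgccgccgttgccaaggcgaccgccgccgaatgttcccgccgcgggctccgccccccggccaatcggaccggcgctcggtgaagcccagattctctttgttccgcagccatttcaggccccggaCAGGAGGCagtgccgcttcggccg
IPO11: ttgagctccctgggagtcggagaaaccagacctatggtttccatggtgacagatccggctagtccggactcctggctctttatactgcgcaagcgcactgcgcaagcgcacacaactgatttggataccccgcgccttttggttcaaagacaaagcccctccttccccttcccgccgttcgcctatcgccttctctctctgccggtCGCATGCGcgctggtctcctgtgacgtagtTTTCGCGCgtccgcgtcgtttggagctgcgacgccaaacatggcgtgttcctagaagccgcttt
XPO6: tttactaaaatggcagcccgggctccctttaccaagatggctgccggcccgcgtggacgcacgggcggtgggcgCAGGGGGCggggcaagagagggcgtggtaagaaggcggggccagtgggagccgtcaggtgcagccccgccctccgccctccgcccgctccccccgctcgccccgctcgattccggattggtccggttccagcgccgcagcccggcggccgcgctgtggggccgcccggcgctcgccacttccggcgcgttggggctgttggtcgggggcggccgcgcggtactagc

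NUP50 held an E-box and an NRF1 core, IPO11 an NRF1 core and an E2F motif, TNPO1 and XPO6 each a CTCF core, and TPR none of the 4 strings. A promoter was found for 47 of the 55 members. The NRF1 core was in 4 of the 47 (8.51%), against 4.03% of the 9054 tested genes with a promoter and 2.20% of all 27305 promoters of the same length. The 4 were NUP50, NUP62, NUP107 and IPO11. They were 4 of 30 members that rose on the centred scale and 0 of 16 tested members that did not. The E2F motif was in 5 of the 47 (10.6%), close to the 10.8% of genes tested, in 5 of 30 that rose and 0 of 16 that did not. Its 5 members were IPO11, IPO7, NUP107, NUP155 and NUP42, so IPO11 and NUP107 held both motifs. Of the 46 tested members with a promoter, 30 rose, against 30.2% of all genes tested. A link between a motif and a rise was not tested. The E-box was in 7 of the 47 (14.9%), against 10.4% of genes tested, in 4 of 30 that rose and 3 of 16 that did not. The CTCF core was in 20 of the 47 (42.6%), against 36.4% of genes tested, in 12 of 30 that rose and 7 of 16 that did not.

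CTCFL itself had intensities of 701 and 737 in shBORIS cells, against 3563 and 3376 in shLUC cells, a difference of -2.25 as deposited and -2.72 on the centred scale (limma adjusted p = 9.31e-10). All 9 adrenergic neuroblastoma markers analysed here were above the filter on dim genes, while 2 of 6 fibroblast, 1 of 4 endothelial, 1 of 4 immune and 1 of 3 Schwann or glial markers were. The summed adrenergic markers were 23845 and 24713 in shBORIS cells, against 18064 and 17314 in shLUC cells, and on the centred scale 2 of the 9 rose and 6 fell (median -0.17). The leukocyte marker PTPRC stood at 11.8 and 10.8 in shBORIS cells, against 15.9 and 12.2 in shLUC cells, and no marker was listed at 0. Summed intensities were 872 and 944 in shBORIS cells, against 1052 and 1104 in shLUC cells, for fibroblast markers, and 179 and 200, against 145 and 130, for Schwann or glial markers. The endothelial sums were 199 and 213, against 197 and 175, and the immune sums 162 and 149, against 163 and 145. Their part in the results was not tested. Bacterial and phage hybridisation controls, added to every array after labelling in the standard procedure for this platform, were also brighter in shBORIS cells, with a median of 0.49 over 9 probe sets (0.21 to 0.55). That is close to the 0.48 of the median gene, whereas the synthetic ERCC RNAs, added to the total RNA, had a median difference of -0.00 over 100 probe sets. Most ERCC probe sets were dim, with medians of 25.5 and 25.8 in shBORIS cells, against 24.8 and 24.4 in shLUC cells, but the 33 above the filter also had a median difference of -0.01 (-0.19 to 0.36). Centring took the same amount from every gene, so a difference as deposited is 0.48 higher than the centred one wherever only the centred one is given.

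Transcripts of the transport machinery were mostly higher in shBORIS cells. As deposited, 49 of the 52 members tested rose and 0 fell by limma (0 also at an unadjusted p under 0.05), but 77.2% of all genes tested rose and 4.6% fell on this scale. On the centred scale, 35 of 52 (67.3%) rose, against 30.2% of all genes tested, and 5 (9.62%) fell, against 28.9%. The median member differed by 0.73 as deposited and 0.25 on the centred scale, where the medians of all genes tested were 0.48 and 0.00. A centred rise of at least 0.5 was found in 9 members, against 7.45% of all genes tested, and a fall of that size in 1, NUP62CL, against 9.43%. The 9 were NUP50, TPR, NUP62 and NUP107 of the pore, TNPO1, IPO11 and KPNA3 of the import machinery, and the exportins XPO6 and XPO1. Members of the pore (27 tested) and the receptors and adaptors (21 tested) had the same centred median of 0.25, with 20 and 12 that rose and 3 and 2 that fell. Which scale is used decides the direction for some members: quantile normalization, which forces the same distribution on all arrays, left 29 members higher and 7 lower, against 26.7% and 28.4% of all genes tested, and of all genes called it left 48.5% higher, against 94.4% as deposited and 51.1% on the centred scale.

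**Figure D1:**
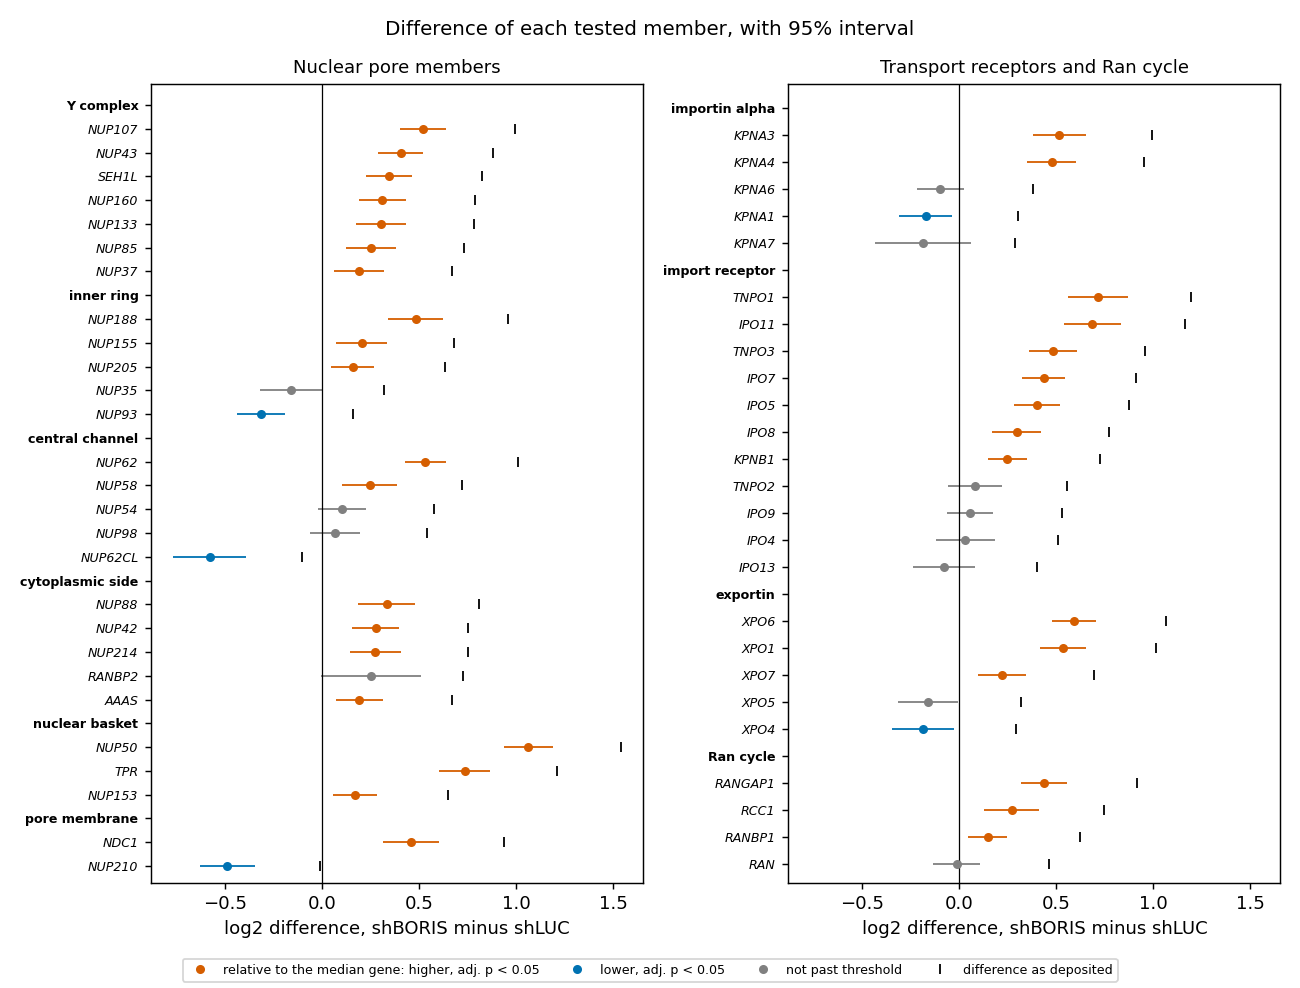
Differences of the 52 tested members, shBORIS minus shLUC on the log2 scale, by role; points with 95% intervals are on the centred scale, coloured by call, and black ticks are the same differences as deposited. NUP50 stands furthest to the right at 1.06, and NUP62CL and NUP210 furthest to the left at -0.58 and -0.49.

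The nuclear basket was the role with the highest median, 0.73 on the centred scale and 1.21 as deposited, and all 3 of its members rose. Of all genes tested, 30.2% rose on the centred scale and 77.2% as deposited. NUP50, a mobile cofactor that helps importin alpha release cargo in the nucleus, had intensities of 1204 and 1253 in shBORIS cells, against 444 and 382 in shLUC cells. Both shBORIS arrays were well above both shLUC arrays, a 2.91-fold difference as deposited and 2.09-fold on the centred scale (log2 1.06, SE 0.06, adjusted p = 7.33e-07). NUP50 has several processed pseudogenes, so its signal is uncertain in part. Its 7 probe sets had centred differences of 0.09 to 1.06, and the lowest did not pass the threshold (adjusted p = 0.440). TPR, the coiled-coil scaffold of the basket, had 701 and 794 in shBORIS cells, against 319 and 307 in shLUC cells. The groups did not overlap, and the centred difference was 0.73 (SE 0.06, adjusted p = 6.39e-06). NUP153, which anchors the basket to the ring, rose by 0.17 on the centred scale (adjusted p = 0.0159), a call that was lost when shBORIS replicate 1, shBORIS replicate 2 or shLUC replicate 2 was left out, with centred differences of 0.17, 0.17 and 0.15 and adjusted p of 0.0711, 0.0699 and 0.0624. Under quantile normalization it was 0.053 (adjusted p = 0.396). A dimmer probe set of NUP153 rose by 0.35 on the centred scale (adjusted p = 0.00241 in the fit to all probe sets).

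**Figure D2:**
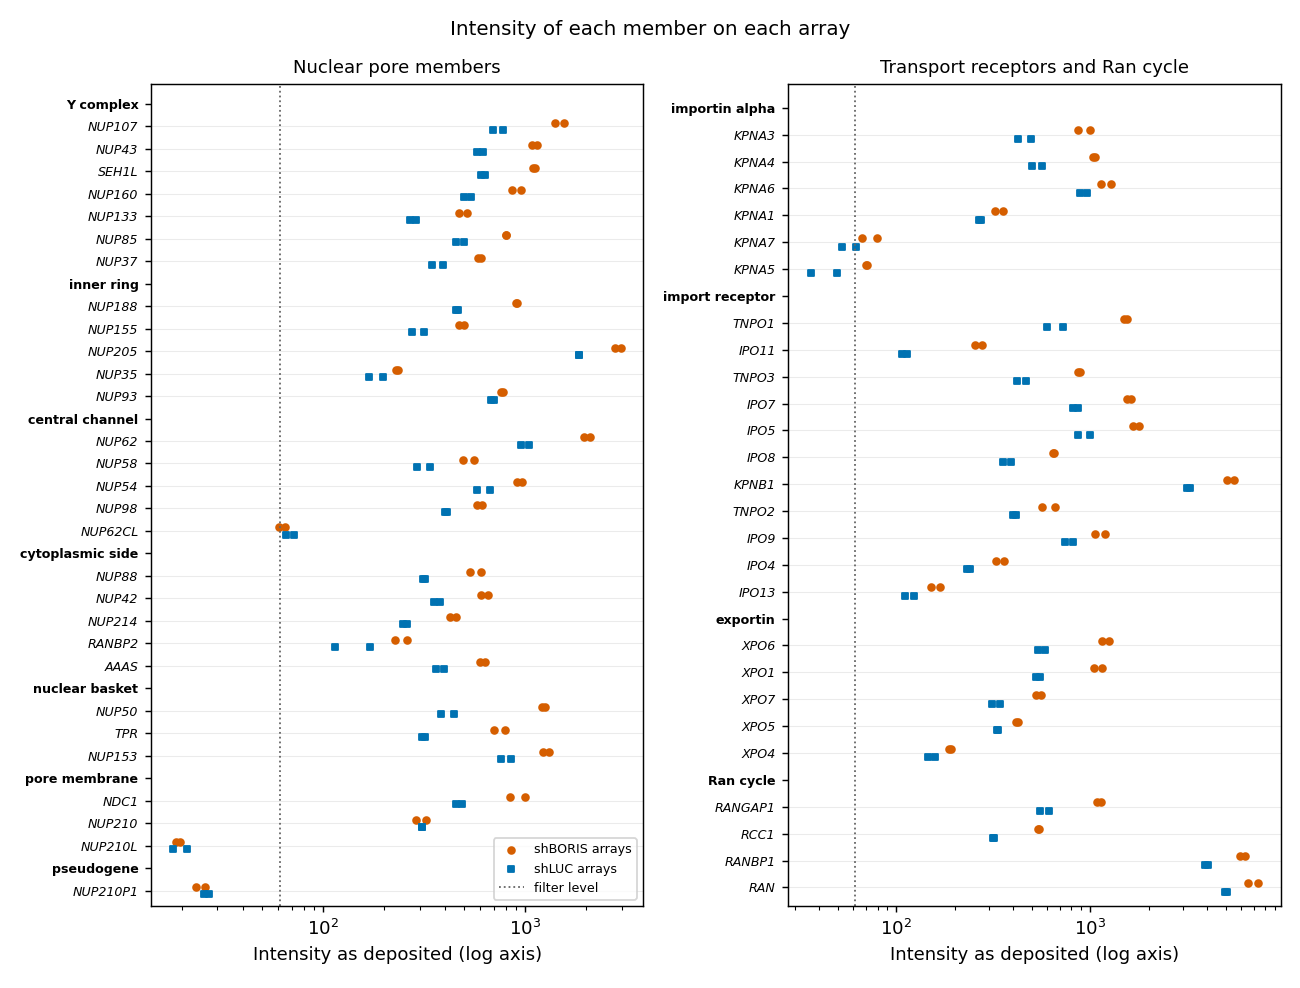
Intensity on each array (log scale) of the members, with the shBORIS and shLUC arrays of each gene marked apart. NUP50, TPR and TNPO1 show wide gaps between the groups, while the arrays of NUP210 and NUP62CL lie close together.

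In the Y complex, the outer scaffold ring that is also found at kinetochores in mitosis, all 7 members tested rose on both scales. Of all genes tested, 77.2% rose as deposited and 30.2% on the centred scale. Centred differences of the 7 members ran from 0.19 for NUP37 to 0.52 for NUP107, with a median of 0.31. NUP107, in the stem of the Y, had 1399 and 1561 in shBORIS cells, against 774 and 694 in shLUC cells. That was a 1.99-fold difference as deposited and 1.43-fold on the centred scale (SE 0.05 on the log2 scale, adjusted p = 2.59e-05). NUP43, SEH1L, NUP160, NUP133 and NUP85 rose by 0.40, 0.35, 0.31, 0.31 and 0.25 on the centred scale. NUP43 had 6 probe sets above the filter, and those at 0.15, 0.05 and 0.004 on that scale did not pass the threshold. SEH1L, which also belongs to the GATOR complex of amino acid sensing, had a second probe set that went the other way there, at -0.18 (adjusted p = 0.0231). NUP160 likewise had a dim probe set at -0.44 (adjusted p = 0.00161), with as-deposited differences of 0.29 for SEH1L and 0.04 for NUP160 in those probe sets. The call for NUP37 was lost without shBORIS replicate 1 (0.17, adjusted p = 0.0899) and without shLUC replicate 2 (0.16, adjusted p = 0.0822). Under quantile normalization NUP37 was 0.094 (adjusted p = 0.216) and NUP85 was 0.13 (adjusted p = 0.101), so neither was called. Their other probe sets rose on the centred scale, by 0.28 in NUP37 and by 0.30 and 0.28 in NUP85. The mean of its probe sets put NUP160 at 0.063 (adjusted p = 0.284).

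In the inner ring, 3 of 5 members rose and 1 fell on the centred scale, where 30.2% of all genes tested rose and 28.9% fell. NUP188, one of its large curved scaffold proteins, rose by 0.48 on the centred scale (SE 0.06, adjusted p = 0.000135), with 905 and 907 in shBORIS cells, against 454 and 463 in shLUC cells. NUP155, which contacts the membrane, and NUP205, the relative of NUP188, rose by 0.20 and 0.16 there. Those calls were lost without shBORIS replicate 1 (adjusted p = 0.0502 for NUP155 and 0.0824 for NUP205). NUP155 also lost its call without shLUC replicate 2 (adjusted p = 0.0792), and NUP205 without shBORIS replicate 2 (adjusted p = 0.114) and without shLUC replicate 1 (adjusted p = 0.0907). Quantile normalization also ended the call of NUP155 (0.12, adjusted p = 0.113), and the mean of probe sets that of NUP205 (0.063, adjusted p = 0.239). That mean includes a probe set under the filter, and the NUP205 probe sets above it rose by 0.16 and 0.23. NUP93, the linker that holds the inner ring and the channel complex together, fell by 0.32 on the centred scale (adjusted p = 0.000785). Its intensities were 761 and 774 in shBORIS cells, against 697 and 674 in shLUC cells, so on the deposited scale both shBORIS arrays were the higher ones (0.16, adjusted p = 0.181). NUP35, a membrane-binding member, differed by -0.16 on the centred scale (adjusted p = 0.0821) and was 0.32 higher as deposited. It was called lower without shLUC replicate 2 (-0.21, adjusted p = 0.0478).

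Of the channel nucleoporins, NUP62 rose most. It forms the central FG-repeat complex with NUP58 and NUP54, and had 1950 and 2094 in shBORIS cells, against 1041 and 953 in shLUC cells. The centred difference was 0.53 (SE 0.05, adjusted p = 1.26e-05), and its 4 probe sets lay between 0.53 and 0.73. NUP58 rose by 0.24, a call lost under quantile normalization (0.16, adjusted p = 0.0637), and NUP54 differed by 0.10 (adjusted p = 0.144). A dimmer probe set of NUP58 rose by 0.26, while those at 0.07 and 0.02 did not pass the threshold. The brightest probe sets of the 3 partners of the complex thus had centred differences of 0.53, 0.24 and 0.10. A difference among them was not tested. NUP98, an FG nucleoporin whose precursor also yields the scaffold protein NUP96, differed by 0.07 in its brightest probe set (adjusted p = 0.356). Another probe set of NUP98 had 233 and 254 in shBORIS cells, against 57.4 and 56.3 in shLUC cells, a centred difference of 1.36 (adjusted p = 1.12e-06 in the fit to all probe sets), the widest of any member probe set above the filter, and the mean of its probe sets was called at 0.57 (adjusted p = 6.13e-06).

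NUP62CL, a gene related to the C-terminal part of NUP62, was the member with the lowest centred value. It had 60.6 and 64.8 in shBORIS cells, against 71.4 and 65.7 in shLUC cells, close to the filter at 61.4. Both shBORIS arrays were below both shLUC arrays by a small margin, a difference of -0.10 as deposited (adjusted p = 0.399) and -0.58 on the centred scale (SE 0.08, adjusted p = 0.000227). At this level the fold is approximate, and its similarity to NUP62 makes the signal uncertain. It was above the filter in 1 probe set.

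On the cytoplasmic side, 4 of 5 members rose on the centred scale, in a narrow range, against 30.2% of all genes tested. NUP88 and NUP214, partners in a complex that binds XPO1 and mRNA export factors, rose by 0.33 and 0.27, NUP42, which binds the mRNA export factor GLE1, rose by 0.27, and AAAS (ALADIN), mutated in triple A syndrome, by 0.19. AAAS lost its call without shBORIS replicate 1 (0.18, adjusted p = 0.0624) and under quantile normalization (0.093, adjusted p = 0.188), and NUP88 as the mean of its probe sets (0.10, adjusted p = 0.141). The mean for NUP88 includes probe sets under the filter, and those above it had centred differences of 0.33, 0.23 and 0.13. Probe sets of NUP42 at 0.04 and 0.09 did not pass the threshold, while its others above the filter rose by 0.27 and 0.24. RANBP2, the giant filament protein that holds SUMO-modified RANGAP1 at the pore, had 227 and 259 in shBORIS cells, against 171 and 114 in shLUC cells. The shLUC arrays were far apart, and the centred difference of 0.25 did not pass the threshold (95% interval -0.01 to 0.51, adjusted p = 0.0862). It ran from 0.043 to 0.46 when 1 array was left out, and was called without shLUC replicate 1 (0.46, adjusted p = 0.000356) and without shBORIS replicate 1 (0.29, adjusted p = 0.0435). RANBP2 also has near-identical copies in the RGPD family, so its signal is uncertain.

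Of the 2 transmembrane members tested, NDC1 rose and NUP210 fell on the centred scale, where 30.2% of all genes tested rose and 28.9% fell. NDC1, needed to insert new pores, had 838 and 999 in shBORIS cells, against 486 and 457 in shLUC cells, and rose by 0.46 on the centred scale (adjusted p = 0.000178). Its 2 other probe sets differed by -0.14 and -0.08 there, and neither passed the threshold. NUP210, the gp210 glycoprotein, had 289 and 323 in shBORIS cells, against 310 and 308 in shLUC cells. Its groups overlapped as deposited (-0.01, adjusted p = 0.921), and on the centred scale it fell by 0.49 (SE 0.06, adjusted p = 0.000123). NUP210L, its paralog, was dim at 18.7 and 19.7 in shBORIS cells, against 18.2 and 21.1 in shLUC cells, as was the pseudogene NUP210P1 at 23.4 and 26.1, against 27.2 and 25.6.

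Among the importin alpha adaptors, which bind classical nuclear localisation signals and hand them to importin beta, KPNA3 and KPNA4, close paralogs of one subfamily, rose on both scales. KPNA3 had 863 and 995 in shBORIS cells, against 492 and 426 in shLUC cells, and rose by 0.52 on the centred scale (SE 0.06, adjusted p = 7.17e-05). KPNA4 had 1035 and 1054 in shBORIS cells, against 566 and 500 in shLUC cells, and rose by 0.48 there (SE 0.06, adjusted p = 6.17e-05). In both genes the groups were far apart, and their other probe sets above the filter had centred differences of 0.19 in KPNA3 and of 0.57 and 0.39 in KPNA4.

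KPNA1, KPNA5 and KPNA6 belong to another subfamily. KPNA1 had 324 and 354 in shBORIS cells, against 275 and 268 in shLUC cells. It rose by 0.30 as deposited and fell by 0.17 on the centred scale (adjusted p = 0.0332), but its 5 probe sets ran from -0.17 to 0.42 there, and the mean of its probe sets gave 0.18, so no direction can be given for the gene. The call in the brightest probe set was lost without shBORIS replicate 1, without shBORIS replicate 2 and without shLUC replicate 2, with differences of -0.16, -0.19 and -0.14. KPNA6 had 1135 and 1285 in shBORIS cells, against 963 and 888 in shLUC cells, a centred difference of -0.10 (95% interval -0.22 to 0.02, adjusted p = 0.142), called lower under quantile normalization (-0.20, adjusted p = 0.00869). Its 5 probe sets also differed in sign, from -0.10 to 0.19. KPNA5, under the filter and untested, had 69.5 and 70.4 in shBORIS cells, against 49.6 and 36.2 in shLUC cells. KPNA7, known from oocytes and early embryos, was dim, with 66.8 and 79.5 in shBORIS cells, against 52.2 and 61.9 in shLUC cells (centred difference -0.19, adjusted p = 0.167). It was called lower without shLUC replicate 1 (-0.34, adjusted p = 0.0286). A difference between paralogs was not tested.

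Import receptors of the importin beta family rose in 7 of 11 cases on the centred scale, and 0 fell by limma (0 also at an unadjusted p under 0.05). Of all genes tested, 30.2% rose there and 28.9% fell by limma. TNPO1, the receptor for signals of the proline-tyrosine type, had 1554 and 1496 in shBORIS cells, against 722 and 600 in shLUC cells. It rose by 0.72 (SE 0.07, adjusted p = 1.82e-05), and its 4 probe sets above the filter lay between 0.54 and 0.72. IPO11, which imports ubiquitin-conjugating enzymes, had 255 and 277 in shBORIS cells, against 114 and 106 in shLUC cells, and rose by 0.68 (SE 0.07, adjusted p = 1.77e-05). In both genes the shBORIS arrays lay above the shLUC arrays, and their second probe sets gave 0.56 for TNPO1 and 0.59 for IPO11.

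KPNB1, importin beta 1 itself, is the partner of the importin alpha adaptors and one of the brightest members. It had 5095 and 5498 in shBORIS cells, against 3252 and 3144 in shLUC cells, and rose by 0.25 on the centred scale (SE 0.05, adjusted p = 0.00105). The 4 dimmer probe sets gave larger values, 0.46 to 0.62. IPO5 showed the same order, 0.40 in its brightest probe set and 0.87 and 1.08 in the 2 others. TNPO3, the receptor for SR splicing factors, rose by 0.48, and IPO7, which imports ribosomal proteins and with KPNB1 histone H1, rose by 0.43. IPO8, the paralog of IPO7, rose by 0.30. The histone receptors IPO4 and IPO9 differed by 0.03 and 0.05, TNPO2, the paralog of TNPO1, by 0.08, and IPO13, which works in both directions, by -0.08. None of these 4 passed the threshold in the brightest probe set, where their 95% intervals reached from -0.24 to 0.22. A second probe set of TNPO2 rose by 0.24 (adjusted p = 0.00980), as did the mean of its probe sets, by 0.19 (adjusted p = 0.0121), and a dim probe set of IPO9 fell by 0.26 (adjusted p = 0.0161).

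Of the 5 exportins, XPO1, XPO6 and XPO7 rose on the centred scale, where 30.2% of all genes tested rose. XPO1 (CRM1), the receptor for leucine-rich export signals, had 1049 and 1151 in shBORIS cells, against 550 and 523 in shLUC cells. It rose by 0.54 on the centred scale (SE 0.05, adjusted p = 2.12e-05), with each of 4 probe sets between 0.54 and 0.60. XPO6, which exports actin with profilin, had 1146 and 1249 in shBORIS cells, against 586 and 540 in shLUC cells, and rose by 0.59 (SE 0.05, adjusted p = 1.00e-05). XPO7 rose by 0.22 (adjusted p = 0.00722), but was not called under quantile normalization (0.13, adjusted p = 0.0722).

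XPO4, which exports the translation factor eIF5A, had 192 and 187 in shBORIS cells, against 159 and 146 in shLUC cells. It rose by 0.29 as deposited and fell by 0.19 on the centred scale (adjusted p = 0.0457). That fall was no longer called without shBORIS replicate 2, shLUC replicate 1 or shLUC replicate 2 (differences of -0.12, -0.18 and -0.19). A dim second probe set of XPO4 fell by 0.44 on the centred scale (adjusted p = 0.00402 in the fit to all probe sets). As deposited that probe set differed by only 0.04 (adjusted p = 0.743 in that fit). XPO5, the exporter of precursor microRNAs, differed by -0.16 in its brightest probe set (adjusted p = 0.0700) and by 0.25 in its other one (adjusted p = 0.00538), so its centred direction depends on the probe set. The brightest one was called lower under quantile normalization (-0.24, adjusted p = 0.0178), without shBORIS replicate 1 (-0.22, adjusted p = 0.0330) and without shLUC replicate 1 (-0.22, adjusted p = 0.0305).

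In the Ran cycle, 3 of 4 members rose on the centred scale, where 30.2% of all genes tested rose. RAN was not called, and both regulators that set the gradient rose. RANGAP1, the GTPase-activating protein, rose by 0.44 on the centred scale (adjusted p = 7.31e-05), with 1084 and 1134 in shBORIS cells, against 614 and 550 in shLUC cells. RCC1, the exchange factor, rose by 0.27 (adjusted p = 0.00449), with 538 and 546 in shBORIS cells, against 316 and 317 in shLUC cells. Its locus is shared with the noncoding gene SNHG3, so its signal is uncertain. RANBP1, a cofactor of GTP hydrolysis, had a dimmer probe set that rose by 0.35 (adjusted p = 0.000313 in the fit to all probe sets). Its brightest one rose by 0.15 (adjusted p = 0.0174). That call was lost without shBORIS replicate 1 (0.14, adjusted p = 0.131) and likewise when shBORIS replicate 2 was left out (0.15, adjusted p = 0.113).

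RAN itself, the brightest member, had 6523 and 7331 in shBORIS cells, against 4969 and 5052 in shLUC cells. It rose by 0.46 as deposited and differed by -0.01 on the centred scale (95% interval -0.13 to 0.11, adjusted p = 0.851). Quantile normalization gave 0.22 (adjusted p = 0.00156), so the scaling decides whether RAN is called. RAN and RANBP1 have processed copies in the genome, and their signals are uncertain for that reason.

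The brightest probe set is 1 of several for most members, and the others show how far the result rests on that choice. Of 164 member probe sets, 144 were above the filter. On the centred scale 90 of the 144 rose and 8 fell, against 28.7% and 25.8% of all 26689 probe sets above the filter, in a fit to those probe sets. Of 41 tested members with more than 1 probe set above the filter, 41 had probe sets of a single sign as deposited, and 33 did so on the centred scale. The 8 with mixed signs were IPO9, KPNA1, KPNA6, NDC1, NUP160, RAN, SEH1L and XPO5. Probe sets of 1 gene share their RNA and are not replicates.

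**Figure D3:**
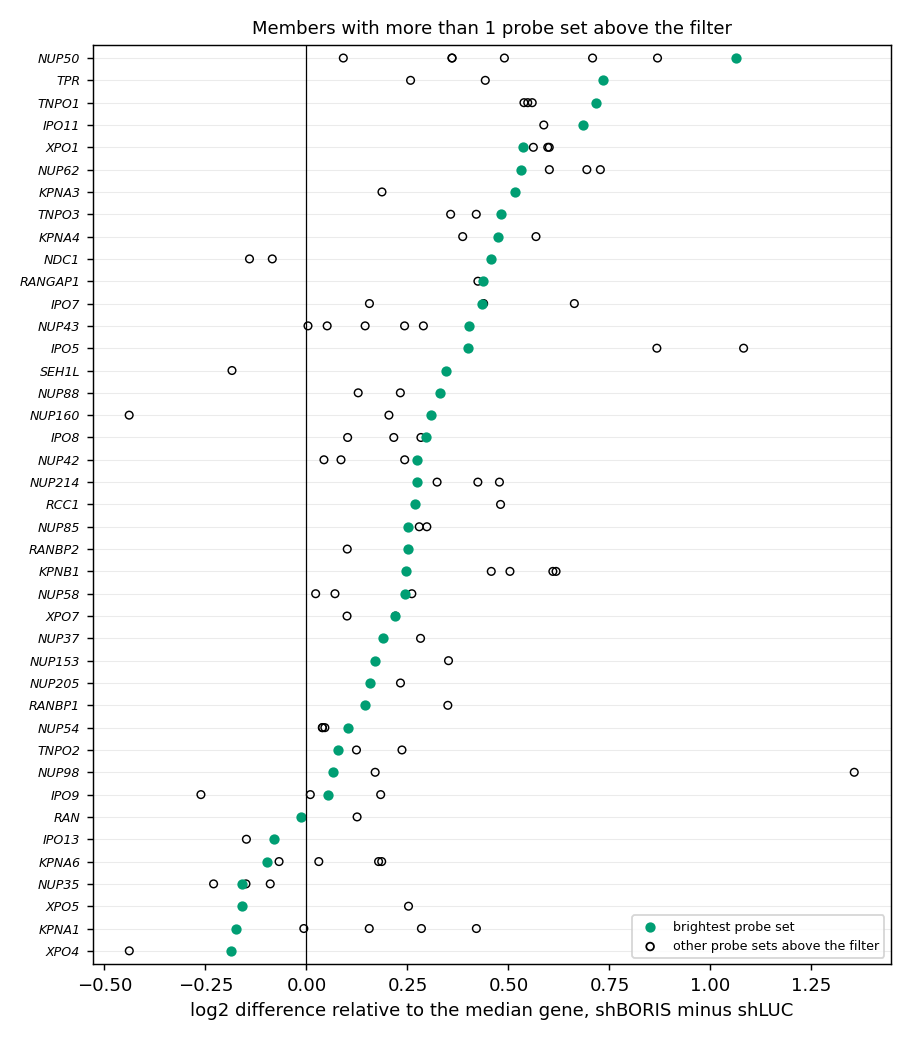
Centred log2 differences, shBORIS minus shLUC, of member probe sets above the filter, with the brightest probe set of each gene marked. Most rows lie to the right of 0, while NUP98 has a probe set at 1.36 far from its brightest one, and KPNA1 and XPO5 spread across 0.

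Most members were among the brighter genes, and in these data differences varied with level. Over deciles of mean level among all genes tested, the median difference on the centred scale ran from -0.17 in the dimmest to 0.14 in the ninth, and was -0.02 in the brightest. In the seventh, eighth and ninth deciles, where 35 of the 52 members lie, 41.0%, 45.8% and 48.4% of all genes rose. Of the members there, 7 of 8, 7 of 9 and 14 of 18 rose, with medians of 0.26, 0.25 and 0.45, against 0.09, 0.13 and 0.14 for all genes of those deciles. In the brightest decile, 6 of 7 members rose, against 31.7% of genes. Of the 10 members below the seventh decile, 1 rose and 4 fell. In those deciles, 6.3% to 36.2% of all genes rose and 26.8% to 38.0% fell.

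**Figure D4:**
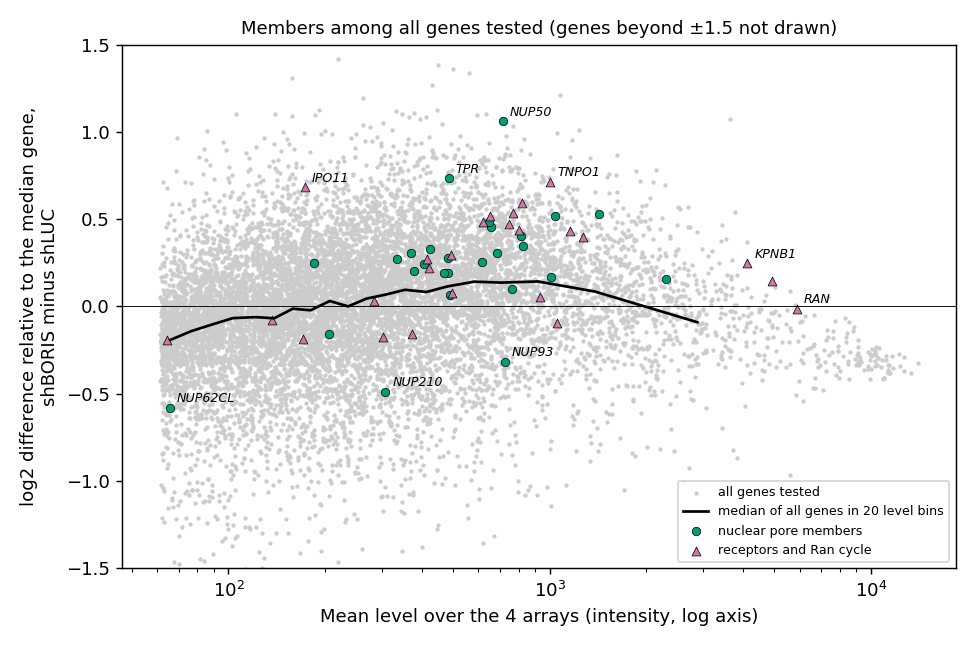
Difference on the centred scale (log2, shBORIS minus shLUC) against mean level (log axis) for all genes tested, with the members marked. Members gather at the brighter levels, mostly above 0, and the few that fell lie mainly at dim or middle levels.

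Other genes of nuclear transport, chosen from knowledge of the pathway with earlier results of these data known, were read in the same way. Of 13 tested, 10 rose on the centred scale and 0 fell by limma, also at an unadjusted p under 0.05 (median 0.23), against the 30.2% and 28.9% of all genes given above. AHCTF1 (ELYS), which seeds pore assembly on chromatin after mitosis, had 291 and 302 in shBORIS cells, against 116 and 95.6 in shLUC cells, a rise of 0.89 (adjusted p = 6.91e-06). CSE1L, the exportin that returns importin alpha to the cytoplasm, had 3519 and 3716 in shBORIS cells, against 1839 and 1646 in shLUC cells, a rise of 0.57 (adjusted p = 6.91e-06). The karyopherins RANBP6 and RANBP17, named outside the symbol rule, rose by 0.53 and 0.47. SENP2 and NXF1 are not analysed here.

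Of 22 genes of mRNA export tested, 11 rose and 3 fell on the centred scale, with a median of 0.17. Of all genes tested, 30.2% rose and 28.9% fell there. NXT1, GLE1 and RAE1 stand in both this list and the last. The 2 lists were not tested against each other. THOC2 and THOC1, of the complex that loads export factors onto transcripts, rose by 0.64 and 0.32. NCBP2, the small subunit of the nuclear cap-binding complex, fell most. It had 367 and 396 in shBORIS cells, against 975 and 914 in shLUC cells, a difference of -1.27 as deposited and -1.75 on the centred scale (adjusted p = 3.36e-08). CHTOP, an adaptor of mRNA export, fell by 0.56 on the centred scale and differed by -0.08 as deposited (adjusted p = 0.504). DDX39B, an RNA helicase of export, fell by 0.23 on the centred scale and rose by 0.25 as deposited.

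Genes of the G2 phase and mitosis were set beside the members because pores are taken apart and rebuilt in each division. All 20 rose on the centred scale, where 30.2% of all genes tested rose, by 0.24 to 1.34, with a median of 0.44. The cytokinesis scaffold ANLN rose by 1.34 and the spindle motor KIF11 by 1.04, and FOXM1, which drives transcription of G2 genes, by 1.13. A link between these genes and the members was not tested.

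**Figure D5:**
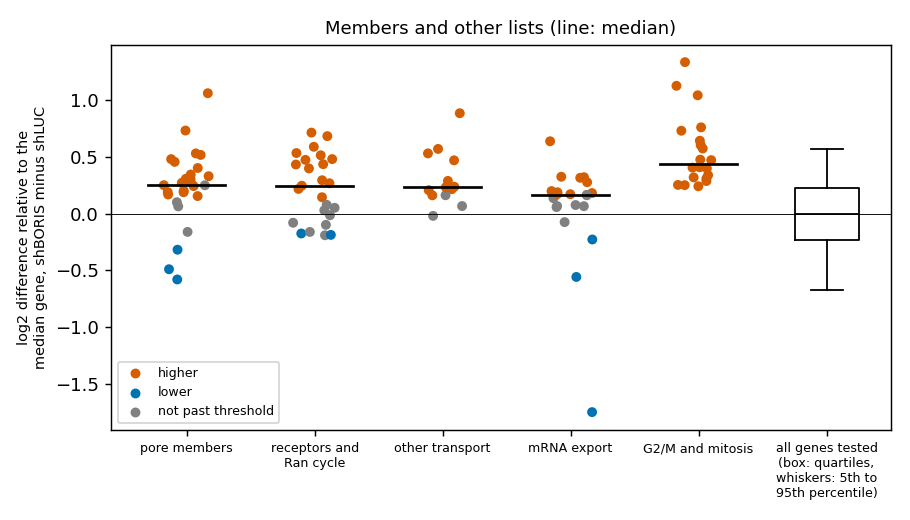
Differences on the centred scale (log2, shBORIS minus shLUC) of the members and of the other lists, with 1 point per gene. All genes tested are drawn as a box from quartile to quartile. The G2/M list has a median of 0.44, and NCBP2 stands alone at -1.75 in the mRNA export list.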

How the data were processed

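Total RNA of 4 samples was measured on Affymetrix PrimeView arrays. The authors deposited linear intensities per probe set, with a column for each array. The submitters' processing notes list MAS5, affy and R 3.1.3 but no roles, and how the arrays were scaled to each other is not stated there. Of 49495 probe sets, 45278 had 1 symbol in the platform annotation, 1333 had several, 2682 were unnamed and 202 were controls. Only those with 1 symbol were used. Entrez identifiers matched the RefSeq table (GRCh38.p14) for 45208, and promoters come from RefSeq in that build.

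The probe set with the highest mean of log2(intensity + 16) stood for each of 18244 genes. Genes under the 40th percentile of those means (intensity 61.4) were left out, which left 10946. limma 3.58.1 in R 4.3.3 was fitted with the hairpin as the only term and an intensity trend, with 2 residual degrees of freedom, on the deposited values and on values centred at the median of each array (the centred scale). The prior had 7.86 degrees of freedom on centred arrays and infinite degrees of freedom as deposited. As deposited, the spread of each gene was thus replaced by that of genes of like level, so small p-values there are not literal. With 2 arrays a group, the smallest two-sided p of an exact permutation test is 0.333. The number of arrays limits the precision.

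Replicates correlated at 0.9968 (shBORIS) and 0.9963 (shLUC) across genes, and groups at 0.9597 to 0.9609. The members and lists were chosen with earlier results of these data known. Full values are given for members past the threshold by at least 0.5 on the centred scale, for RAN, KPNB1 and XPO1, and for KPNA1 to KPNA6; other members with values on each array were picked after their values were seen. Alternatives were other scalings, pseudocounts of 1 and 64, no filter or a 60th percentile filter, and the mean of probe sets, including those under the filter. Others were a prior without trend or robust, platform symbols, a replicate block, and leaving out each array. Centring on hybridisation controls and choosing probe sets by linear mean were added after seeing the data.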

Additional observations from a re-analysis of the deposited data

Results flagged for a closer look

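The hybridisation controls lie outside the comparison of genes and carried a difference between the groups. These 9 probe sets (bioB, bioC, bioD and cre) had medians of 1169 and 1194 on the shBORIS arrays, against 906 and 775 on the shLUC arrays. Their median log2 difference as deposited was 0.49 (0.487727 before rounding), and 9 of 9 were higher on both shBORIS arrays than on both shLUC arrays. The 12 poly-A controls had a median difference of 0.17, with 7 of 12 separated in that way, and the 100 ERCC probe sets, most of them dim, a median of -0.00. The 33 ERCC probe sets above the filter had medians of 308 and 322 on the shBORIS arrays, against 286 and 274 on the shLUC arrays, and a median difference of -0.01, with 4 of 33 separated. With the arrays centred on the hybridisation controls, 37 members were higher and 3 lower, against 37.2% and 22.6% of all genes tested. Its part in the differences as deposited was not tested.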

How the results depend on the processing

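CTCFL kept its direction and call under every alternative run. Under quantile normalization 29 members were higher and 7 lower, in place of 49 and 0 as deposited, with 26.7% and 28.4% of all genes tested. The values that turned negative against the deposited ones were IPO13 -0.054, IPO4 -0.023, IPO9 -0.065, KPNA1 -0.24, KPNA6 -0.20, KPNA7 -0.014, NUP35 -0.18, NUP54 -0.025, NUP93 -0.44, NUP98 -0.041, TNPO2 -0.030, XPO4 -0.19 and XPO5 -0.24, and RAN was 0.22, against -0.01 on the centred scale. Centring on hybridisation controls, an alternative chosen after seeing the data, gave 37 higher and 3 lower, against 37.2% and 22.6% of all genes (62.2% of all calls higher), with IPO13 -0.0083, KPNA1 -0.10, KPNA6 -0.027, KPNA7 -0.12, NUP35 -0.089, NUP93 -0.25, XPO4 -0.12 and XPO5 -0.089 turned negative against the deposited values. Centring on the median of the 100 ERCC probe sets, of which 33 were above the filter, is close to the deposited scale. It left 49 members higher and 0 lower, against 75.2% and 5.4% of all genes tested (93.3% of all calls higher). It turned values positive that were negative on the centred scale: IPO13 0.36, KPNA1 0.27, KPNA6 0.34, KPNA7 0.25, NUP35 0.28, NUP93 0.12, RAN 0.43, XPO4 0.25 and XPO5 0.28. The turns against deposited or centred values on both centrings follow from the shift each applies. The cause of RAN's turn was not tested. KPNA1 was 0.18 as the mean of its probe sets, and with the brightest probe set by linear mean, also chosen after seeing the data, KPNA1 was 0.42 and XPO5 0.25.

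Leaving out 1 array in turn gave 46 to 48 members higher and 0 lower as deposited, and 30 to 35 higher and 3 to 6 lower on the centred scale, where the 3 came without shBORIS replicate 2. Of all genes, 66.8% to 75.9% were then higher as deposited and 26.1% to 28.2% on the centred scale. On the centred scale, the share of all genes called lower was slightly under the share called higher in each of these runs. On the deposited scale it was far under that share. As deposited, the rises of KPNA1, KPNA6, KPNA7, NUP35, XPO4 and XPO5 each lost their call without at least 1 array. With a replicate block, 46 members were higher and 0 lower as deposited, against 69.6% and 3.5% of all genes. On the centred scale 35 were higher and 5 lower, against 31.4% and 29.6%. The deviations of same-numbered arrays correlated at 0.098 over 2 pairs, so the numbers are not shown to pair the samples. No alternative among pseudocounts, filters, priors and symbols reversed a member, but some ended or added centred calls. The 60th percentile filter, which moves the median used for centring, gave 29 higher and 7 lower of 49 tested. Of the 7298 genes then tested, 29.7% were higher and 32.4% lower. This filter ended the centred calls of AAAS, NUP153, NUP155, NUP205, NUP37 and RANBP1, and it called KPNA6, NUP35 and XPO5 lower. A pseudocount of 1 ended those of NUP205, RANBP1 and XPO4, no filter those of KPNA1 and XPO4, and a prior without trend those of NUP205 and RANBP1. Dim members near the filter, NUP62CL and KPNA7, have little signal over background, which limits their folds.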
